A study of Danio rerio with 4 samples.

Results

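Transcripts of 8 endoderm transcription factors, sox32, sox17, mixl1, gata5, gata6, foxa1, foxa2 and foxa3, were followed in SLAM-Seq libraries of whole zebrafish embryos. The genes were taken by name from the 25769 genes of the deposited table, and all 8 were found. Their Ensembl identifiers are ENSDARG00000100591 (sox32), ENSDARG00000101717 (sox17), ENSDARG00000069252 (mixl1), ENSDARG00000017821 (gata5), ENSDARG00000103589 (gata6), ENSDARG00000102138 (foxa1), ENSDARG00000003411 (foxa2) and ENSDARG00000012788 (foxa3). All embryos were of the AB/TL strain and received 4-thiouridine (4sU) by injection at the 1-cell stage, so that RNA made afterwards carries 4sU. Pools of 25 embryos were collected at 4.8 hours post fertilization (hpf, 30% epiboly) and at 1 hpf (4-cell), by the study's methods, which give 50 mM 4sU, whereas the sample labels give 6 hpf and 20 mM. Each stage has 1 polyA+ library and 1 ribo-depleted library, in which polyadenylated or non-ribosomal RNA was sequenced, on different instruments. No stage is replicated within a library type, and no library of embryos that lacked 4sU was used.

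In the zebrafish blastula, Nodal signals from the yolk syncytial layer and the margin induce mesendoderm, the common source of mesoderm and endoderm. The homeodomain factor mixl1 and the zinc finger factors gata5 and gata6 act downstream of Nodal and help to switch on sox32, a Sox factor known from fish and required for endoderm. Together with the maternal factor pou5f3, sox32 turns on sox17, a conserved Sox factor of endoderm. The forkhead factors foxa1, foxa2 and foxa3 act in the later gut and its organs, and foxa2 also in the axial mesoderm.

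The libraries held 9058807 to 22521675 reads. Chemical conversion makes labeled T bases read as C, and from these the authors estimated how much of each gene's RNA was new, its NTR, given here in percent. Levels are in RPM, reads scaled to the library total. In bulk RNA, fewer cells of a type and less RNA per cell cannot be told apart. Markers of the other parts of the embryo were present at 4.8 hpf: all 6 mesoderm and margin markers, 4 ectoderm, 5 enveloping layer and 4 yolk syncytial layer markers had a higher level than at 1 hpf (edgeR), while 4 of 5 germ cell markers had a lower one.

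sox32, required for endoderm, was transcribed by 4.8 hpf at a moderate level. At 4.8 hpf it had 60.0 RPM (polyA+) and 37.0 RPM (ribo-depleted), against 0 and 0.311 RPM at 1 hpf. These rest on 613 and 660 reads at 4.8 hpf, against 0 and 7 at 1 hpf, and the stages did not overlap. The level at 4.8 hpf was 119-fold that at 1 hpf in the ribo-depleted libraries (95% exact interval of 2 counts, 57.5 to 298), and at least 181-fold higher in the polyA+ libraries, where the 1 hpf library was set to a floor of 3 reads. Such intervals and floors cover counting error only. In the fit over both library types, the log2 change was 7.95 ± 0.66 (SE, edgeR adjusted p = 7.18e-31). Each SE given here was derived from the same test statistic as the p-value, and is not a separate estimate of error.

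sox17, which acts after sox32, was barely detected. It had 16 and 24 reads at 4.8 hpf in the polyA+ and ribo-depleted libraries, or 1.57 and 1.35 RPM, against 0 and 3 reads at 1 hpf. Both 4.8 hpf libraries were above both 1 hpf libraries, but on few reads. The ratio of the stages in the ribo-depleted libraries was 10.1 (3.07 to 52.5), and the polyA+ level was at least 4.73-fold higher at 4.8 hpf. Its log2 change was 4.10 ± 0.93 (SE, edgeR adjusted p = 7.18e-05). This call was lost with DESeq2 (log2 change 4.803, adjusted p = 0.094). It was also lost when any 1 of the 4 libraries was left out, in fits without library type (log2 changes of 3.65 to 7.18, edgeR adjusted p 0.078 to 0.098), with the value of 7.18 in the fit without the 1 hpf ribo-depleted library. Scaled to gene length and library (TPM), sox32 exceeded sox17 47.2-fold and 33.9-fold at 4.8 hpf.

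mixl1, a paired-class homeodomain factor of the margin, was among the most abundant members. It had 239 and 152 RPM at 4.8 hpf in the polyA+ and ribo-depleted libraries, against 0.662 and 1.15 RPM at 1 hpf. Its few early reads, 6 and 26, gave ratios of the stages of 362 (166 to 986) and 131 (89.4 to 201). The log2 change was 7.80 ± 0.68 (SE, edgeR adjusted p = 9.36e-29).

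gata6 had the highest early level of the members, although counting error did not separate it from mixl1. It had 288 and 133 RPM at 4.8 hpf, against 0.883 and 1.47 RPM at 1 hpf, where 8 and 33 reads were counted. Its levels at 4.8 hpf were 326-fold (165 to 757) and 91.0-fold (64.6 to 133) those at 1 hpf. Its relative gata5, needed for endoderm and heart in zebrafish, had 113 and 42.8 RPM at 4.8 hpf, against 1 and 2 reads, or 0.110 and 0.0888 RPM, at 1 hpf. The ratios for gata5 were 1023 (183 to 40431) and 482 (133 to 3984), with wide intervals because of these early counts. Both genes rose, with a log2 change of 7.46 ± 0.67 for gata6 (SE, edgeR adjusted p = 7.41e-27) and 9.41 ± 0.73 for gata5 (SE, edgeR adjusted p = 1.27e-35).

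The 3 foxa genes differed widely in level. foxa3 had the most reads of all members in the polyA+ library, with 339 RPM at 4.8 hpf, and 116 RPM in the ribo-depleted library, and was listed in neither 1 hpf library. It was therefore at least 1025-fold and 868-fold higher at 4.8 hpf, against the floor of 3 reads per library, and passed the test (edgeR adjusted p = 3.31e-39). foxa2 had 16.8 and 11.7 RPM at 4.8 hpf, against 0.110 and 0.266 RPM at 1 hpf, from 1 and 6 reads. Its log2 change was 6.15 ± 0.68 (SE, edgeR adjusted p = 7.90e-18). foxa1 was not detectable above the floor at this depth: it had 0 and 2 reads at 4.8 hpf in the polyA+ and ribo-depleted libraries, against 2 and 0 reads at 1 hpf, and did not pass the filter on low counts.

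**Figure D1:**
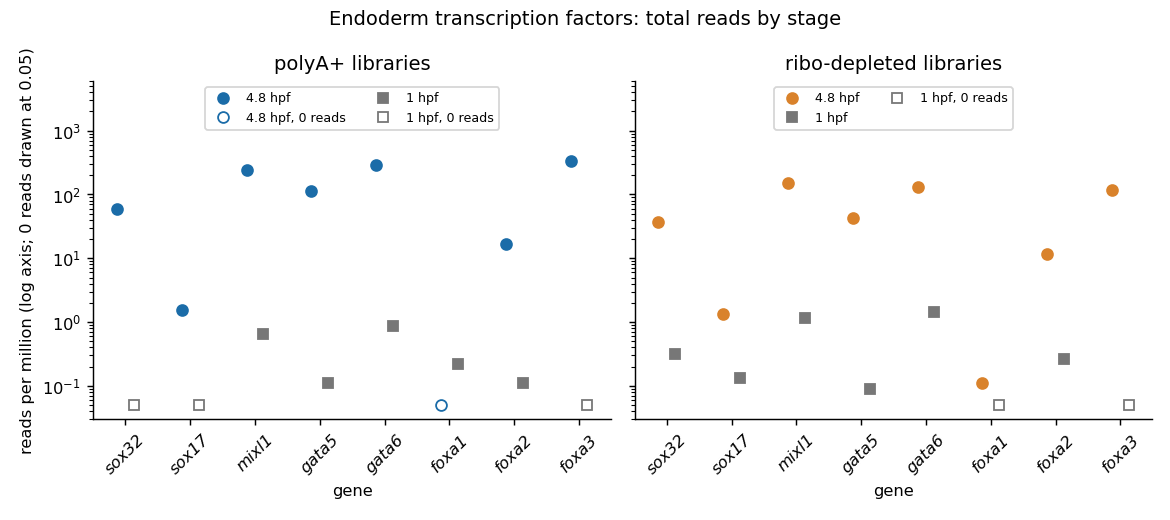
Total reads of each member in RPM (log axis), in the polyA+ libraries (left) and the ribo-depleted libraries (right), with 1 point per library: circles for 4.8 hpf and squares for 1 hpf, open where a gene had 0 reads. The 4.8 hpf points lie above the 1 hpf points for all members but foxa1, from 1.35 RPM for sox17 to 339 for foxa3.

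Of the 8 members, 7 passed the filter and 7 rose at an adjusted p under 0.05 (edgeR's quasi-likelihood test with library type as a covariate), while 18.3% of the 16315 genes tested rose and 14.4% fell. These 7 members had at most 33 reads in a 1 hpf library. Apart from gata6, they had too few reads at 1 hpf to pass the filter without their 4.8 hpf libraries. A rise was thus favoured in advance, and foxa1, low at both stages, dropped out. Their count, p-values and median log2 change, and how far their calls held under other fits, are therefore a description. Nothing is read from their excess over all genes. Both 4.8 hpf libraries lay above both 1 hpf libraries for the same 7 members and for 25.4% of the genes tested. The median log2 change of the tested members was 7.80, the value of mixl1, against 0.10 over all genes tested. The fitted change of foxa3 has no reads at 1 hpf behind it, and with foxa3 at its lower bound the median was still the value of mixl1. The fit has 1 residual degree of freedom, so these p-values measure how alike the stages compare in both library types, and no variation between batches of embryos. Calls other than that of sox17 held under each of the 8 alternative fits, with log2 changes of 7.54 to 12.24 for sox32, 7.53 to 8.20 for mixl1, 8.88 to 10.27 for gata5, 6.98 to 8.11 for gata6 and 5.96 to 6.88 for foxa2. The value of 12.24 for sox32 is from the fit without the 1 hpf ribo-depleted library, in which sox32 had 0 reads at 1 hpf. These calls came much nearer to the threshold without library type. In that fit of all 4 libraries, the adjusted p of the members other than sox17 was 0.0092 to 0.0115 (edgeR).

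Per length, gata5, sox32, foxa2 and sox17 followed in the same order in both library types at 4.8 hpf, while the order of foxa3, gata6 and mixl1 ahead of them was reversed. In the polyA+ library foxa3 (286 TPM, 95% counting interval 277 to 296) and gata6 (277 TPM, 267 to 287) led and their intervals overlapped. They were followed by mixl1 (206 TPM), gata5 (114 TPM), sox32 (60.4 TPM), foxa2 (22.1 TPM) and sox17 (1.28 TPM), whose intervals did not overlap with their neighbours in the order. In the ribo-depleted library mixl1 (74.1 TPM, 71.4 to 77.0) and gata6 (72.8 TPM, 69.9 to 75.8) were not separated by counting error, and foxa3 (55.5 TPM) came after them. gata5 (24.5 TPM, 22.8 to 26.4) and sox32 (21.2 TPM, 19.6 to 22.9) also overlapped there, ahead of foxa2 (8.78 TPM) and sox17 (0.627 TPM).

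Most reads of the members at 4.8 hpf were new. Over the members, 64.5% of 10810 reads in the polyA+ library were new (95% Wilson interval 63.6% to 65.4%), and of 8793 ribo-depleted reads 73.3% were new (72.4% to 74.2%). Wilson intervals of the NTR treat each read as counted new or not, and leave out the error of the NTR estimate itself. In the polyA+ library the NTR was 70.4% for sox32, 67.0% for mixl1, 66.8% for gata5, 64.2% for foxa3, 63.1% for foxa2 and 60.6% for gata6. In the ribo-depleted library it was 80.8% for mixl1, 79.2% for sox32, 76.1% for foxa2, 71.8% for gata5, 70.4% for foxa3 and 65.9% for gata6. gata6 was thus lowest in both libraries, with Wilson intervals (58.8% to 62.3%, and 64.0% to 67.8%) below those of sox32 (66.7% to 73.9%, and 76.0% to 82.2%). Genes of 100 or more reads had a median NTR of 8.04% and 8.49%, and these 6 members stood at the 91.8th to 97.7th percentiles. For sox17, the NTR of 98.2% and 81.9% rests on 16 and 24 reads, and its intervals (80.6% to 100%, and 64.1% to 93.3%) overlap.

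At 1 hpf, no new RNA was estimated for the members: the NTR was listed as 0 for each of the 5 members listed in the polyA+ library and the 6 in the ribo-depleted library. Of the T bases covered by their early reads, 0 of 322 were read as C in the polyA+ library, which allows a share of up to 0.932% by the floor of 3 counts (95% exact upper limit 1.14%). In the ribo-depleted library the share was 14 of 2793 T bases, or 0.501% (95% exact interval 0.274% to 0.840%), with 7 conversions each in gata6 and mixl1, against 0.232% over the whole library.

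For the 6 members that reached 100 reads in each 4.8 hpf library, the unlabeled reads at 4.8 hpf exceeded all reads at 1 hpf. For sox17 they did not, with polyA+ reads at or under the floor at both stages and a ribo-depleted ratio of 1.69 (0.285 to 11.5). For gata6, unlabeled RNA made up 114 and 45.4 RPM at 4.8 hpf in the polyA+ and ribo-depleted libraries, against 0.883 and 1.47 RPM of any kind at 1 hpf, or 129-fold (65.1 to 299) and 31.0-fold (21.9 to 45.3). For mixl1 the unlabeled level was 79.1 and 29.1 RPM at 4.8 hpf, against 0.662 and 1.15 RPM in all at 1 hpf. For foxa3 it was 122 and 34.2 RPM, at least 367-fold and 257-fold higher than the floor at 1 hpf. The unlabeled reads of sox32 were 17.8 and 7.70 RPM at 4.8 hpf, those of gata5 37.5 and 12.1, and those of foxa2 6.21 and 2.80, also above the 1 hpf totals in both library types. These unlabeled reads are the part not estimated as new by the NTR, a model estimate, and are not a count of reads without a conversion. How much of them was stored RNA of the egg, and how much new RNA not estimated as new, was not tested. A set of 126 genes, foxa3 among them, lacked reads at 1 hpf altogether and had 100 or more in each 4.8 hpf library. In this set the middle 50% had an NTR of 66.6% to 74.4% in the polyA+ and 74.1% to 82.7% in the ribo-depleted library. sox32 and mixl1 fell inside both ranges, foxa3 and gata6 below both, gata5 inside only the polyA+ range and foxa2 inside only the ribo-depleted range. Some of this was within counting error. The Wilson intervals of mixl1, gata5 and foxa2 included the lower end of the polyA+ range, and those of gata5 and foxa2 the lower end of the ribo-depleted range.

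**Figure D2:**
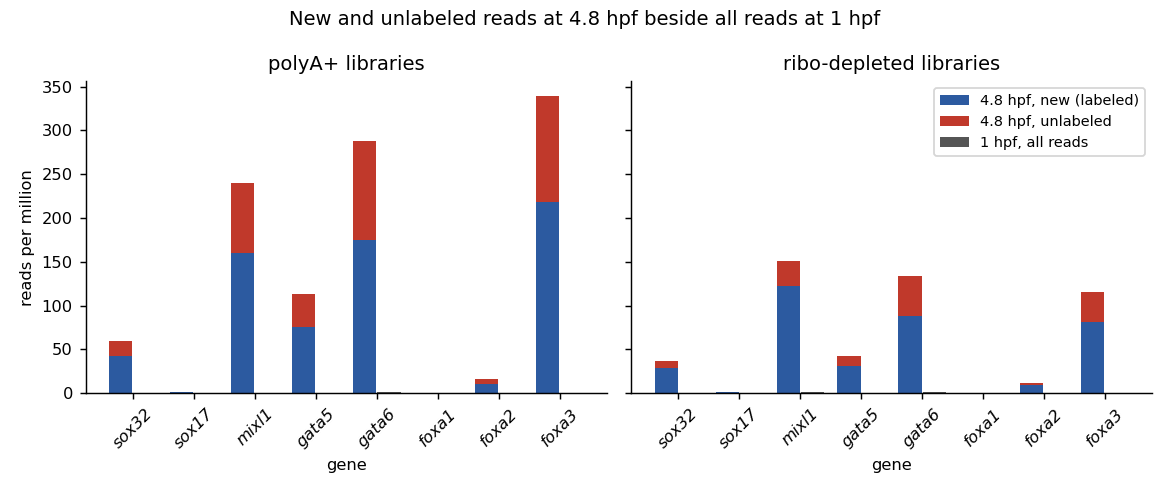
New (blue) and unlabeled (red) RPM at 4.8 hpf, stacked for each member, beside all reads at 1 hpf (gray), in the polyA+ (left) and ribo-depleted (right) libraries, with 1 library per bar. The unlabeled part at 4.8 hpf, 114 RPM for gata6 and 122 for foxa3 in the polyA+ library, stands far above the 1 hpf bars, which reach 0.883 and 0.

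The library types differed in opposite directions for the raw conversions and for the NTR of the members. At 4.8 hpf the T-to-C share, the percent of covered T bases read as C, was higher in the polyA+ library for all 7 members detected in both, while the NTR was lower in the polyA+ library for all 6 members with at least 100 reads. The T-to-C share of gata6 was 5.003% in polyA+ (95% exact interval 4.81% to 5.20%) and 4.45% in ribo-depleted RNA (4.30% to 4.61%), while the NTR was 60.6% and 65.9%. For mixl1 the shares were 5.33% and 4.98% and the NTR 67.0% and 80.8%, the widest gap among the 6 members. For foxa3 the shares were 5.10% and 4.59% and the NTR 64.2% and 70.4%, and for gata5 5.47% and 5.01% with an NTR of 66.8% and 71.8%. The intervals of the T-to-C share were separate only for gata6 and foxa3 and overlapped for the other 5 members, such as sox32, at 5.53% (5.09% to 5.99%) and 5.38% (5.07% to 5.69%), and foxa2, at 6.02% and 5.11%. The Wilson intervals of the NTR, which leave out the error of its estimate, were separate for sox32, mixl1, gata6 and foxa3. They overlapped for gata5 (64.0% to 69.4%, and 68.5% to 74.9%) and foxa2 (56.0% to 70.2%, and 69.9% to 81.4%). The pattern was not particular to these genes. Of the 955 genes with at least 100 reads and an NTR over 50% in both 4.8 hpf libraries, 87.7% had the higher conversion share in the polyA+ library, 79.2% had the higher NTR in the ribo-depleted library and 66.9% had both. Library type, kit and instrument cannot be told apart.

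**Figure D3:**
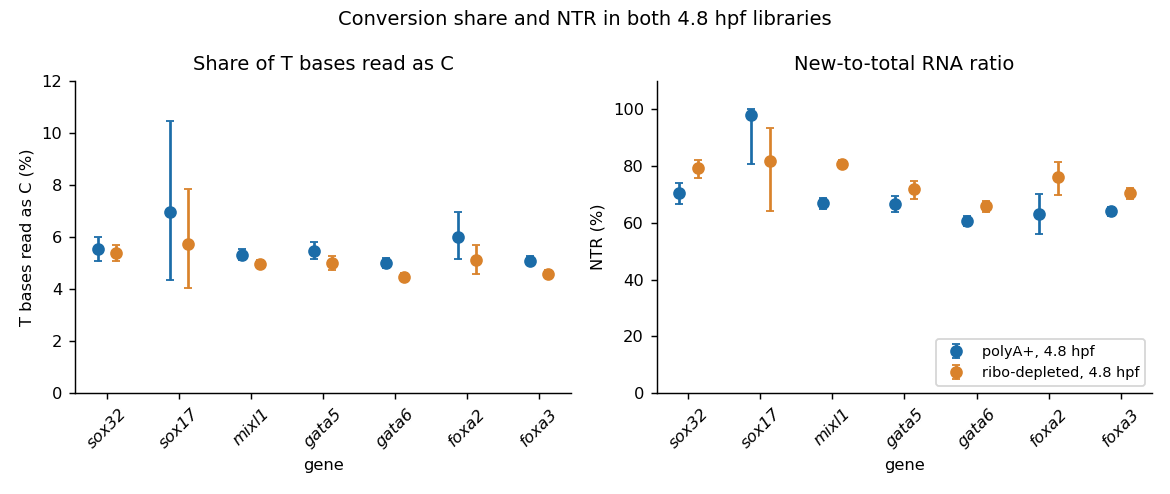
Percent of T bases read as C (left, bars are 95% exact intervals) and NTR in percent (right, bars are 95% Wilson intervals) of the 7 members detected in both 4.8 hpf libraries, polyA+ in blue and ribo-depleted in orange. The conversion shares are higher in the polyA+ library, with separate intervals only for gata6 and foxa3. For gata6 the share is 5.003% in polyA+ against 4.45% in ribo-depleted RNA, while its NTR is lower in polyA+, 60.6% against 65.9%.

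The members also had more RPM in the polyA+ than in the ribo-depleted library at 4.8 hpf. The ratio was 2.94 for foxa3 (95% exact interval 2.78 to 3.10), 2.64 for gata5 (2.41 to 2.90) and 2.16 for gata6 (2.05 to 2.28). It was 1.62 for sox32 (1.45 to 1.81), 1.58 for mixl1 (1.496 to 1.67) and 1.44 for foxa2 (1.17 to 1.77), and the interval for sox17 (0.577 to 2.28) included 1. Over 8932 genes that reached 100 reads in each library the median ratio was 1.01, and the 6 members stood between the 79.0th percentile (foxa2) and the 96.6th percentile (foxa3). The excess was not particular to the members. Mesoderm and margin markers summed to 1440 RPM in polyA+ and 899 in ribo-depleted RNA, ectoderm markers to 315 and 183, and enveloping layer markers to 2315 and 1571. Germ cell markers summed to 640 and 358, while yolk syncytial layer markers were nearly equal, at 372 and 368.

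**Figure D4:**
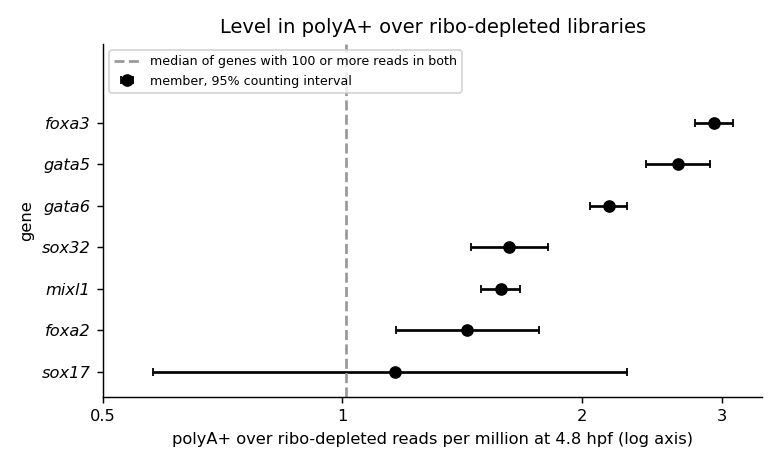
Ratio of RPM in the polyA+ over the ribo-depleted library at 4.8 hpf (log axis) for the 7 members detected in both, with 95% exact counting intervals; the dashed line is the median of 8932 genes, 1.01. foxa3, gata5 and gata6 lie above 2, and sox32, mixl1 and foxa2 between 1.44 and 1.62.

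The NTR of the members was set beside that of marker genes of other parts of the embryo in the same 4.8 hpf libraries. The 4 yolk syncytial layer markers, mxtx1, mxtx2, hnf4a and slc26a1, had an NTR of 58.1% to 66.4% in the polyA+ and 55.4% to 76.9% in the ribo-depleted library, and the 6 mesoderm and margin markers 66.1% to 74.0% and 73.9% to 89.4%. gata6 and foxa3 lay inside the yolk syncytial layer range and below the margin range in both libraries. The 4 ectoderm markers had an NTR of 65.3% to 78.6% and 63.9% to 80.2%, so that gata6 and foxa3 lay below the ectoderm range in the polyA+ library and inside it in the ribo-depleted library. sox32 and mixl1 lay inside the margin range and above the yolk syncytial layer range in both. Some placements were within counting error. In polyA+ the Wilson interval of mixl1 (65.0% to 68.8%) included the highest yolk syncytial layer and the lowest margin value. That of foxa3 there (62.6% to 65.8%) included the lowest ectoderm value. In the ribo-depleted library that of sox32 (76.0% to 82.2%) included the highest yolk syncytial layer value. foxa2 (63.1% and 76.1%) also lay inside the yolk syncytial layer range in both libraries, but inside the margin range only in the ribo-depleted library. Its Wilson intervals (56.0% to 70.2%, and 69.9% to 81.4%) reached beyond the highest yolk syncytial layer value in each. gata5 was placed differently by the libraries for both ranges. The yolk syncytial layer markers summed to 372 and 368 RPM at 4.8 hpf, against 0.166 and 0 at 1 hpf, with none of the 4 at 0 at 4.8 hpf. The part of this layer in the levels of gata6, foxa3 and foxa2 was not tested. The 5 enveloping layer markers had an NTR of 73.7% to 77.7% and 79.6% to 89.8%, and no germ cell marker was above 13.3%. That highest value was of dazl in the ribo-depleted library, where dazl already had an NTR of 12.2% at 1 hpf.

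**Figure D5:**
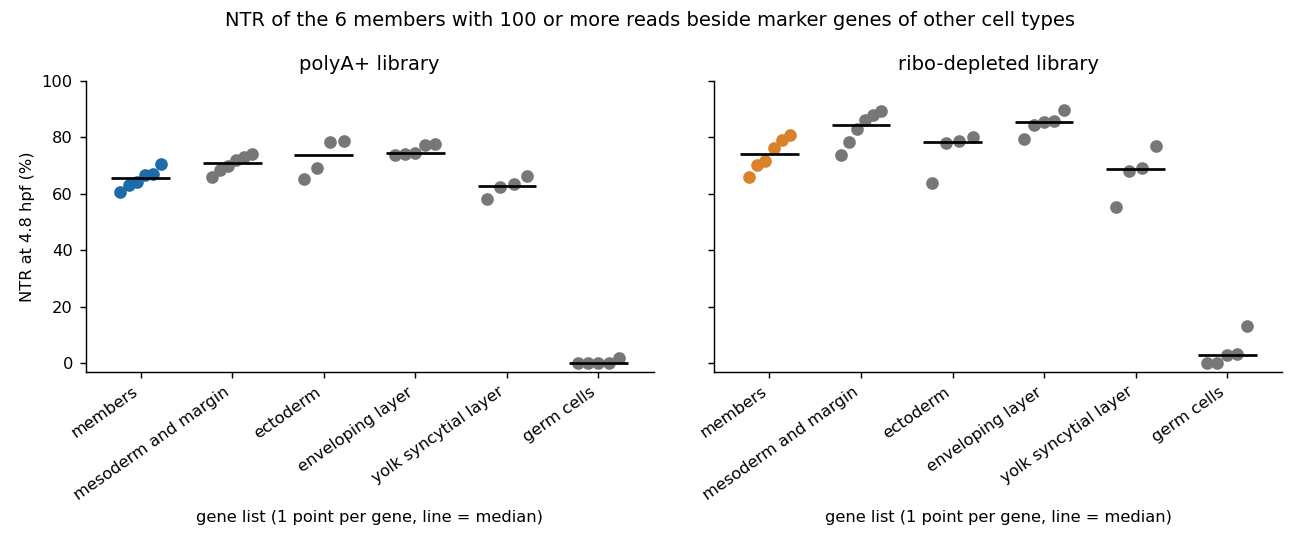
NTR at 4.8 hpf in percent of the 6 members with at least 100 reads and of marker genes of other parts of the embryo, 1 point per gene, in the polyA+ (left) and ribo-depleted (right) library; lines are medians. The members span 60.6% to 70.4% and 65.9% to 80.8%, overlapping the yolk syncytial layer markers and the mesoderm and margin markers, and lie far above the germ cell markers.

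The pathway around the members combined stored and new RNAs. Of 30 genes of the Nodal and endoderm pathway, 27 were tested, of which 9 rose, 0 fell and 18 did not pass (edgeR), beside 18.3% and 14.4% of all genes tested that rose and fell. Among the Nodal ligands, ndr1 and ndr2 rose, with log2 changes of 3.24 and 9.19 and an NTR of 72.8% and 80.2% in the polyA+ library. The third ligand, gdf3, is deposited in the egg and works as a heterodimer with both. It had 512 and 631 RPM at 4.8 hpf, against 926 and 734 at 1 hpf, with an NTR of 0.26% and 0.11% at 4.8 hpf. Both antagonists, lft1 and lft2, which are themselves Nodal targets, rose and had no read at 1 hpf in either library type.

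None of the 7 receptors and co-receptors or of the 5 signal transducers passed the test. Their median log2 changes were 0.23 and −0.95, against 0.10 over all genes. Their RNA was nevertheless not all stored: the co-receptor tdgf1 had an NTR of 59.9% and 58.4%, with 211 and 173 RPM at 4.8 hpf against 85.3 and 104.7 at 1 hpf (edgeR adjusted p = 0.066). The NTR of foxh1, the DNA-binding partner of Smad2, was 44.0% and 38.02%. The maternal T-box factor eomesa, which works with mixl1 and gata5 on sox32, had an NTR of 0% and 0.09%, with 144 and 69.2 RPM at 4.8 hpf, against 584 and 104 at 1 hpf (edgeR adjusted p = 0.12). pou5f3, the partner of sox32 on sox17, had an NTR of 38.9% and 43.4%, with 1860 and 825 RPM at 4.8 hpf, against 874 and 347 at 1 hpf (edgeR adjusted p = 0.16). At 1 hpf the NTR of pou5f3 was 0.38% in the polyA+ library and already 8.82% in the ribo-depleted library.

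Of 5 genes listed as downstream of sox32 or as used by endoderm, the 4 tested rose. cxcr4a, the chemokine receptor of migrating endoderm, had 127 and 137 RPM at 4.8 hpf, against 0.442 and 0.266 at 1 hpf. her5 and cdh2 had log2 changes of 6.86 and 2.49. cxcl12b had 13.3 and 11.2 RPM at 4.8 hpf, against no read at 1 hpf. cxcr4a, her5 and cdh2 are also used by other tissues. Of 4 close paralogs, 2 were tested, foxa and sox7, of which foxa rose, by 1.92 ± 0.49 on the log2 scale (SE, edgeR adjusted p = 5.02e-04). It had 306 and 213 reads at 4.8 hpf, against 5.46 and 5.48 RPM (49.5 and 123 reads) at 1 hpf, more at 1 hpf than any of the 8 members. gata4 had 0.294 and 0.393 RPM at 4.8 hpf and was listed at 0 at 1 hpf.

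Genes of like pattern were sought among 8818 named genes by the Euclidean distance over 8 values, the log2 of new and of unlabeled RPM plus 1 in the 4 libraries. Nearest to sox32 were cyp27c1 (distance 0.478), hmgn6 and mgll. Nearest to foxa2 were znf1049 (distance 0.239), cyp24a1 and gpa33a. Nearest to gata5 were aplnra (distance 0.502), net1 and znf995. mixl1 lay nearest to zic2b (distance 0.696), bmp7a and gata6, and gata6 to bmp7a (distance 0.828), mixl1 and marcksl1a. For foxa3 the nearest were si.ch211.152c2.3 (distance 0.859), plekhn1 and sb.cb81. These 8 values come from only 4 libraries, 2 at each stage, and the distances are a description.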

How the data were processed

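SLAM-Seq libraries of whole embryos were analysed. The submitters' notes name cutadapt, STAR and GRCz11, and the methods name GRAND-SLAM. The authors deposited estimated counts without normalization and the NTR as a fraction. They also deposited, per gene, the coverage of T bases and how many of these were converted. Rows name time and instrument but no replicate, and library type follows from the instrument by the methods. A gene that is not listed in a library was taken as 0 reads.

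New reads were computed as the read count multiplied by the NTR. TPM values were computed here from reads and gene length, and are comparable within a library only. Rounded counts entered the quasi-likelihood test of edgeR 4.0.16 (R 4.3.3) with TMM, filterByExpr, library type as covariate and Benjamini-Hochberg adjustment. The SE of a log2 change was computed as its absolute value over the square root of the quasi-likelihood F. The fit was also run on counts simulated with the dispersion of these data, which cannot check its p-values for variation between batches of embryos. DESeq2 1.42.0 was an alternative. Intervals used scipy 1.17.1 and Python 3.11.15. At 9058807 to 22521675 reads per library, 3 reads correspond to 0.133 to 0.331 RPM (reads scaled to a library total of 1e+06). The members and gene lists were chosen with earlier results of these data known. Named genes are the members, 30 pathway genes, marker genes and the 3 genes nearest in pattern to each member that reached 100 reads in each 4.8 hpf library. No promoter, protein or genome sequence was used, so the planned motif search was not run. Gene order came from RefSeq, assembly GRCz12tu, used for names and neighbours only.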

Additional observations from a re-analysis of the deposited data

Results flagged for a closer look

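Among the members and pathway genes, 6 genes changed in opposite directions in the polyA+ and ribo-depleted libraries. The values below are log2 changes of RPM plus 1 at 4.8 hpf over 1 hpf, and their differences are polyA+ minus ribo-depleted. The differences were not tested, and each direction was the same with TMM scaling. foxa1 differed by −0.44, on 0 to 2 reads per library, which the floor of 3 reads does not separate from 0. nanog, a maternal activator of the genome, had a change of −0.84 in polyA+ and 0.49 in ribo-depleted libraries, a difference of −1.33. The receptor genes acvr2bb and acvr1ba differed by −0.99 and −0.52. smad4a differed by −0.44 and sox7 by −0.48, the last on at most 1.66 RPM.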

How the results depend on the processing

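No paired analysis was possible because the deposited rows carry no replicate number; library type stood in every edgeR fit except those named here. The number of genes called, 5326, was 1977 with library type left out, and 952 to 1669 when each library was left out in turn, with library type left out as well. It was 3712 with DESeq2, 4998 with library totals in place of TMM, which moved the median log2 change of all genes from 0.10 to −0.05, and 5712 with no filter on low counts. Of the members, 7 were called under each of these except DESeq2 and the leave-one-out fits, where 6 were called and sox17 was lost. The percent of the members' reads that was new in the ribo-depleted 4.8 hpf library, 73.3%, was 70.0% without mixl1, which has the most reads there. The NTR of mixl1 in that library was 80.8%. A minimum of 100 reads and division by gene length left the percent of the members' reads that was new within its Wilson interval in both library types. Subtraction of the 1 hpf NTR could not change it, since that NTR was 0 for every member. A minimum of 10 reads took out only foxa1, in the ribo-depleted library. The median NTR of the members was 66.8% in polyA+ (65.5% with at least 100 reads) and 74.0% in ribo-depleted RNA (76.1% with at least 10 reads). Of the values of single genes under the alternatives, 81 stayed, 34 moved, 5 lost the call, all of sox17, and 0 reversed. Those that moved were log2 changes of new or unlabeled reads. Most moved when 0.1 in place of 1 RPM was added before the log2, and the rest with TMM scaling. Depth limits sox17 and foxa1, and the early counts of all members.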

Other observations

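In RefSeq, 1 protein-coding gene, which was not analysed here, lies between sox17 and sox32. The gene next to sox17 on its other side was not analysed here either. Of the nearby genes with values, mrpl15, a mitochondrial ribosomal protein gene beside sox32, had 20.2 and 11.7 RPM at 4.8 hpf in the polyA+ and ribo-depleted libraries, against 26.8 and 24.3 at 1 hpf, with an NTR of 16.3% and 9.56% at 4.8 hpf. The next gene, lypla1, had 2.94 and 1.52 RPM at 4.8 hpf, against 10.6 and 10.1 at 1 hpf, and an NTR of 0 in all 4 libraries. rps20, the second gene from sox17 on its other side, had 208 and 214 RPM at 4.8 hpf, against 141 and 147 at 1 hpf, and an NTR of 21.0% and 15.96% at 4.8 hpf.

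The conversion share divided by the NTR, a T-to-C share per unit of new RNA, was 7.85% to 9.54% in the polyA+ and 6.17% to 6.98% in the ribo-depleted library over the 6 members with at least 100 reads. The medians over the 955 genes with an NTR over 50% in both were 8.08% and 6.50%. mixl1 had the lowest value of the 6 members in the ribo-depleted library, and foxa2, with 172 reads, the highest in the polyA+ library.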
